A study of Mus musculus with 16 samples.

Results

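Granins and their processing enzymes were followed through the peaks of accessible chromatin that differed between the non-NE and the neuroendocrine (NE) cells of mouse small-cell lung cancer (SCLC). The genes were *Chga*, *Chgb*, *Scg2*, *Scg3*, *Scg5*, *Vgf* and *Resp18* of the granin family and its relatives, and *Pcsk1*, *Pcsk2* and *Cpe*, which encode prohormone processing enzymes. A listed peak belonged to one of these genes where its protein-coding start site was the nearest to the centre of the peak. By this rule 83 of the 80367 listed peaks were assigned to the 10 genes. The rule itself used position alone, but the listed peaks had passed the authors' limits on fold change and adjusted p-value. The genes were chosen with earlier results of these data known.

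The tumors arose in *TKO*;*Hes1* GFP/+ mice. An adenovirus expressing Cre from the CMV promoter was given to the lungs of these mice and removed floxed *Rb*, *p53* and *p130*. One *Hes1* allele carries a GFP reporter in these mice, so that GFP marks cells with active *Hes1*. Both groups share these deletions and the reporter allele, and differ in the sort gate. GFP high cells are labelled positive for Hes1-GFP and represent the non-NE state, whereas GFP neg cells represent the NE state. The tumors of each mouse were pooled before the sort, and 4 pairs of populations were obtained from 3 mice, with 2 pairs from 1 mouse. Each of the 8 ATAC-seq libraries was run on 2 lanes, which gave 16 runs, 8 for each group. By the study's methods the tumors were induced in young adult mice of mixed gender and collected months later.

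ATAC-seq reads accumulate where the Tn5 transposase can reach the DNA, so a peak marks accessible chromatin. The authors listed the peaks that differed between the groups, and each was read here only as closed (less accessible in GFP high cells) or opened (more accessible in GFP high cells). The lists held 39539 closed and 40828 opened peaks. The only level used is the authors' mean normalized count of a peak over all libraries. It is 1 value for both groups together, so no value per sample, SD or n can be given and the depth per library is unknown. No comparison between groups was tested again, and in sorted bulk populations a site that closes in each cell and a site that is open in fewer cells cannot be told apart. Chromosomes, starts and ends refer to mm10.

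Granins are acidic proteins that aggregate in the trans-Golgi network with calcium and help to form the dense core vesicles of the regulated secretory pathway. Prohormone convertases cut the precursors of peptide hormones at pairs of basic residues inside these vesicles, and a carboxypeptidase then trims the exposed basic residues. Chromogranin A, the product of *Chga*, is a classical tissue and serum marker of neuroendocrine tumors, SCLC included.

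Of the 83 peaks, 69 were closed in GFP high cells and 14 were opened, so 83.1% were closed. Among all listed peaks 49.2% were closed. All nearest peaks were closed at 7 of the 10 genes, *Chgb*, *Scg2*, *Scg3*, *Scg5*, *Resp18*, *Pcsk2* and *Cpe*. Among all genes with 2 or more listed peaks, 17.2% had closed peaks alone. *Vgf* was the only member with opened peaks alone, as were 27.0% of these genes. *Chga* and *Pcsk1* had peaks of both kinds.

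Both groups of genes had more closed than opened peaks. The 7 granin genes held 26 closed and 10 opened peaks (72.2% closed), and the 3 enzyme genes held 43 closed and 4 opened peaks (91.5% closed). *Chga* alone accounted for 8 of the 14 opened peaks. Without *Chga*, 63 of 69 peaks were closed (91.3%). Peaks of a gene share their neighbourhood and are not replicates, so these shares are descriptions.

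**Figure D1:**
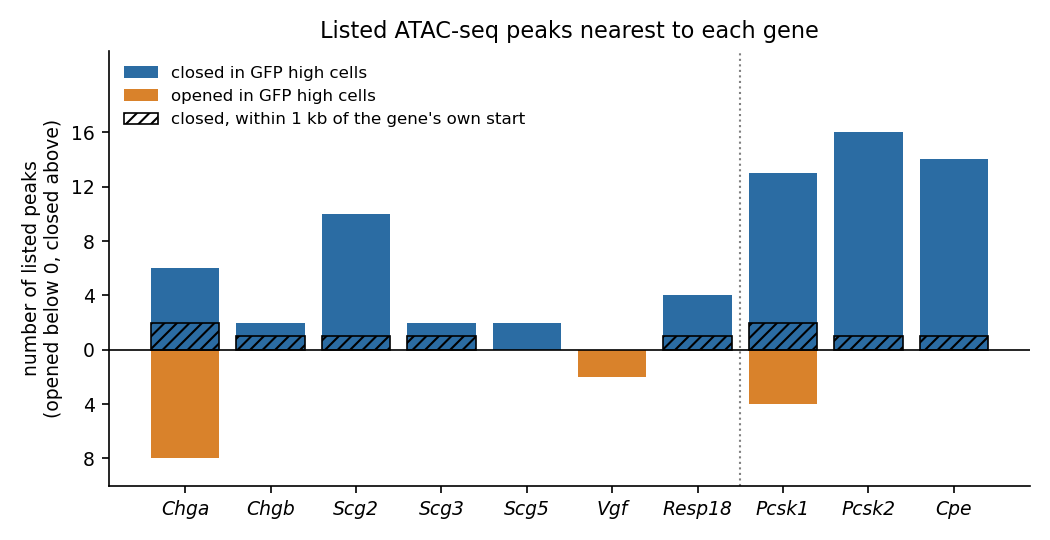
Number of listed ATAC-seq peaks (y axis) whose nearest protein-coding start site is that of each gene (x axis), with closed peaks above 0, opened peaks below 0, and hatching for closed peaks within 1 kb of the gene's own start. Granin genes stand left of the dotted line and the enzymes right of it; *Pcsk2* had 16 closed peaks, *Chga* had 6 closed and 8 opened, and *Vgf* had 2 opened peaks only.

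The sites that closed included the start sites of most of these genes. A closed peak lay within 1 kb of an own start site at 8 of the 10 genes, *Chga*, *Chgb*, *Scg2*, *Scg3*, *Resp18*, *Pcsk1*, *Pcsk2* and *Cpe*. Across the annotated protein-coding genes 8.65% had such a peak. No member had an opened peak centred within 1 kb of its start, while 28.7% of protein-coding genes did. *Vgf* had 1 where any base of the peak within 1 kb was enough, and 2 at a distance of 3 kb, where a start inside the gene brought in a peak toward its 3′ end. *Scg5* and *Vgf* had no listed peak centred within 1 kb of a start site, which says only that none passed the limits of the lists.

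A short palindrome is shown here because 6 of these 8 genes held it in the promoter peak with at most 1 mismatch. It is the core of the cyclic AMP response element (CRE), TGACGTCA, which is bound by CREB and related bZIP factors. It was found without a mismatch in the closed promoter peaks of *Chgb*, *Scg2* and *Pcsk1*. The best match in those of *Chga*, *Scg3* and *Pcsk2* differed from it by 1 base. The 30 bases around each site are given on the strand of the gene, with the 8 bases of the core in capitals.
*Chgb*, chr2:132781559-132781588, + strand: gggctgctccgTGACGTCAgggctgagcga
*Scg2*, chr1:79440076-79440105, - strand: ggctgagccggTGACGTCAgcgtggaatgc
*Pcsk1*, chr13:75089768-75089797, + strand: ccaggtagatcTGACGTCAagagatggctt
*Chga*, chr12:102554886-102554915, + strand: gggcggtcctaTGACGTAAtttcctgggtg
*Scg3*, chr9:75684068-75684097, - strand: cgctgggtcgcTGACGCCAtcctcacgcct
*Pcsk2*, chr2:143545856-143545885, + strand: tccacaaacaaTGACATCAccgggcgccgg

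Measured from the RefSeq start sites on GRCm38.p6, which were matched for 8 of the 10 genes, the core lay upstream at each of these 6 genes. It lay 65 to 72 bp upstream in *Chgb*, 61 to 68 bp in *Scg2* and 71 to 78 bp in *Pcsk1*. The sites with 1 mismatch lay 37 to 44 bp upstream in *Chga* and 23 to 30 bp in *Scg3*, while that of *Pcsk2* lay farther out, at 259 to 266 bp. GENCODE places the start of *Chgb* farther upstream than RefSeq does, so that by GENCODE the site of *Chgb* falls in a 5′ UTR. The site of *Scg2* overlaps an annotated UTR of another transcript of the gene.

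The exact core was in 3 of the 13 closed promoter peaks assigned to the members (23.1%) and in 1.38% of all 3827 closed promoter peaks. Among all opened promoter peaks 3.02% held it. With 1 mismatch allowed, a count chosen after the values were seen, the numbers were 7 of 13 (53.8%) and 10.5%. The peak beside the 6 own promoters lies at the start of the pseudogene *Gm19095*, downstream of *Pcsk1*. The member promoter peaks were wider than the others, with a median width of 346 bp against 251 bp, and a wider peak offers more bases to match. Among closed promoter peaks of at least 346 bp, a comparison also added after the values were seen, the exact core was in 2 of 7 member peaks and 2.22% of all 1169 such peaks, and the core with at most 1 mismatch in 5 of 7 and 15.0%. The part of width in the difference was otherwise not tested.

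A second sequence is shown because it marks the sites where REST is known to bind. REST is a zinc finger repressor of neuronal genes that recognises a long element named RE1 or NRSE. A 20-base REST-NRSF string with at most 4 mismatches was found in 2 of the 83 peaks, on the strand opposite to the gene in each. In *Chgb* it lay in the closed promoter peak, 153 to 172 bp downstream of the RefSeq start, with 2 mismatches. In *Chga* it lay in an opened peak 4.22 kb upstream of the start, with 3 mismatches. The capitals mark the 20 bases, and the peak of *Chga*, of 119 bp, is printed whole.
*Chgb*, chr2:132781790-132781819, + strand: ggattTCAGCACCCCGGACAGCTCCtagag
*Chga*, chr12:102550687-102550805, + strand: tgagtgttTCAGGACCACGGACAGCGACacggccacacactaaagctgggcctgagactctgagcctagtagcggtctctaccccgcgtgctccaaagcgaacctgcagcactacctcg

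The string was in 0.210% of all closed and 0.272% of all opened peaks. Among closed peaks of about the width of the *Chgb* peak the share was 0.742%, and among opened peaks of about the width of the *Chga* peak it was 0.492%. These 2 matches lay in peaks of opposite direction, the start of *Chgb* being closed and the site upstream of *Chga* opened in GFP high cells. A match of letters is not a measurement of binding. The study itself mapped REST binding by ChIP-seq in lines of GFP high cells. It gives *Chga*, *Chgb* and *Resp18* as examples of genes that REST represses, and those data were not used here.

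*Chga* was the only granin gene with peaks of both kinds, 6 closed and 8 opened. The balance depended on the assignment, with 5 closed and 3 opened peaks where starts of any gene type took part, and 4 closed and 2 opened within 10 kb of the gene body. Its promoter carried 2 closed peaks. The first, at chr12:102553860-102554507, was centred 786 bp upstream of the start, with a mean normalized count of 197, above 97.5% of the closed list. The second, at chr12:102554750-102555071, was centred 59 bp upstream and had a mean normalized count of 77.1. The other 4 closed peaks had mean normalized counts between 9.98 and 44.2. The closed peaks of *Chga* thus lay mostly at and upstream of the start, with 5 of the 6 there.

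The 8 opened peaks of *Chga* lay 34.4 and 4.22 kb upstream and between 15.9 and 72.1 kb downstream of the start. The 6 downstream peaks all fell in introns of the neighbouring gene *Itpk1*, an inositol phosphate kinase gene, so the nearest start site alone links them to *Chga*. The peak 15.9 kb downstream, at chr12:102570648-102571187, had the highest mean normalized count of the opened peaks of *Chga*, 121, above 78.4% of the opened list. Its central 300 bases are printed because it is the strongest of the opened peaks of *Chga*. The capitals mark CATTCC, the core recognised by TEAD factors. It was in 2 of the 14 opened member peaks (14.3%), a lower share than the 25.4% of all opened peaks.
*Chga*, chr12:102570768-102571067, + strand: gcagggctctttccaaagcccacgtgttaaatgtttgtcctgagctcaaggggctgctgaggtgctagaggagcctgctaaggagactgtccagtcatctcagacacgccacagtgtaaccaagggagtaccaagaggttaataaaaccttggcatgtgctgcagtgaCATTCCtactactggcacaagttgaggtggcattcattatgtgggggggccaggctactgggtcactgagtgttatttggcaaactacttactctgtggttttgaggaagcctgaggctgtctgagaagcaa

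*Chgb*, which encodes the related chromogranin B, had 2 closed peaks. The promoter peak at chr2:132781341-132782035 had a mean normalized count of 261, above 98.7% of the closed list. The other, in an intron 5.77 kb downstream, had a mean normalized count of 19.8, below the median of 25.8 for all closed peaks. The locus was therefore represented by 1 strong site at the start.

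*Scg2*, the gene of secretogranin II, had 10 closed peaks spread over a wide region. The promoter peak at chr1:79439909-79440254 had a mean normalized count of 63.7 and was exceeded by 3 distant peaks. The highest, at chr1:79400395-79400846, lay 39.4 kb downstream, with a mean normalized count of 164. The peaks 249 kb downstream and 41.9 kb upstream had mean normalized counts of 152 and 145. The other 6 peaks lay between 5.26 and 16.4, below the median of the closed list. The locus had no opened peak, and it ranked 873 by the number of closed peaks among the 14590 genes with a listed peak.

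*Scg3* and *Scg5* had 2 closed peaks each. Secretogranin III, the product of *Scg3*, binds chromogranin A on the granule membrane. Its promoter peak at chr9:75683712-75684219 had a mean normalized count of 276, the highest of the granin genes and above 98.9% of the closed list. The other peak of *Scg3*, 17.3 kb downstream and 68 bp from the start of an unclassified transcript (*Gm37871*), had a mean normalized count of 9.14. A further closed peak inside the body of *Scg3*, with a mean normalized count of 120, lay nearer to the start of *Lysmd2* and is not among the 83.

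*Scg5* encodes 7B2, the chaperone and inhibitor of the convertase made by *Pcsk2*. Its closed peaks lay in introns, 7.64 and 33.7 kb downstream of the start, with mean normalized counts of 14.7 and 11.5. Both were below the median of the closed list, so the highest level of *Scg5* was the lowest among the genes with closed peaks. The first is printed whole, with the AP-1 core TGANTCA in capitals, because it holds 2 such sites in 200 bases.
*Scg5*, chr2:113821380-113821579, - strand: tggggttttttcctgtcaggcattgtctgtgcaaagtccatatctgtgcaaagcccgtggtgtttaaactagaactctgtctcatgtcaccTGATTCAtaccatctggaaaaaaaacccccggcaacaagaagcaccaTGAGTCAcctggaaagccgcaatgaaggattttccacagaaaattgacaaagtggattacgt

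*Vgf*, a nerve growth factor inducible gene for a secreted neuropeptide precursor, went the other way. Its opened peak at chr5:137032659-137033115 had a mean normalized count of 200, above 87.2% of the opened list. The centre of this peak lay in a UTR in an exon, 2.52 kb downstream of the nearest start. *Vgf* has 3 annotated start sites and spans chr5:137026392-137033351 on the + strand. The nearest start is thus one inside the gene, and the peak lay toward the 3′ end. The other opened peak lay 1.1 kb upstream of a start site, just outside the promoter distance of 1 kb, with a mean normalized count of 38.6.

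*Resp18*, which encodes a dense core vesicle protein of endocrine cells, had 4 closed peaks. The promoter peak at chr1:75278366-75278515 was weak, with a mean normalized count of 17.9. The highest, at chr1:75283063-75283336, lay 4.78 kb upstream with a mean normalized count of 64.6. The remaining pair, 7.34 and 11.2 kb upstream, had 14.8 and 57.9. At this gene 2 of the 3 upstream sites thus had higher levels than the promoter.

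**Figure D2:**
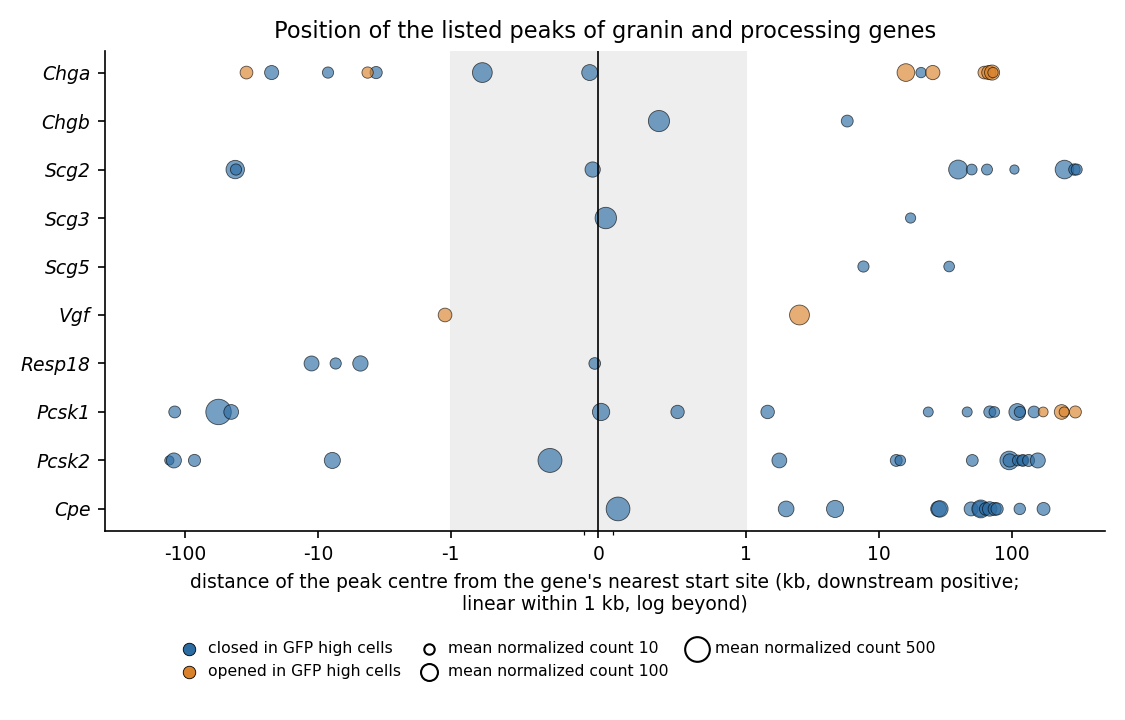
Distance of each peak centre from the nearest start site of its gene (x axis, in kb, linear within 1 kb and logarithmic beyond, downstream positive) for the 10 genes (y axis), with colour for the list, point area growing with the square root of the mean normalized count, and grey for 1 kb on either side of the start. Closed points lie in the grey band at 8 genes, and the opened points of *Pcsk1* lie farther out than all its closed points.

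The enzyme genes had the largest numbers of closed peaks, 16 at *Pcsk2*, 14 at *Cpe* and 13 at *Pcsk1*. Together with *Scg2*, 4 of the 10 members had 10 or more closed peaks, as did 6.94% of the 14590 genes. Of these 4, *Cpe* alone kept 10 or more, with 12, 12 and 13, where a peak had to lie within 100 kb of the start, where starts of any gene type took part, or where the mean normalized count had to reach 20. The numbers in the same order were 9, 0 and 9 for *Pcsk2*, 9, 7 and 7 for *Pcsk1*, and 6, 5 and 4 for *Scg2*. Within 10 kb of the gene body *Pcsk2* had 16 closed peaks, *Cpe* 12, *Pcsk1* 5 and *Scg2* 1. By the number of closed peaks *Pcsk2* ranked 355, *Cpe* 490 and *Pcsk1* 568 among these genes. *Pcsk2* spans 270 kb and *Cpe* 101 kb, and the part of gene length in these numbers was not tested.

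*Pcsk1* encodes the convertase PC1/3, which makes the first cuts in many prohormones. The most accessible site of all 83 peaks was a closed intergenic peak upstream of *Pcsk1*, with a mean normalized count of 569, above 99.9% of the closed list and above every promoter peak of the 10 genes. The promoter had 2 closed peaks, at chr13:75089712-75089976 with a mean normalized count of 110 and at chr13:75090275-75090450 with 34.6. The closed peak at the start of *Gm19095*, 110 kb downstream, had a mean normalized count of 95.3. The remaining 9 closed peaks lay between 7.91 and 54.3.

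The 4 opened peaks of *Pcsk1* lay 172 to 301 kb downstream, beyond all 13 closed peaks, and no other protein-coding start was nearer. The highest, at chr13:75326516-75326930, had a mean normalized count of 52.9. With a limit of 100 kb between peak and start site none of them would be assigned to *Pcsk1*.

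*Pcsk2* encodes the convertase PC2, which acts later in the granule. Its promoter peak at chr2:143545395-143546262 was the widest of the 83, 868 bp, and had a mean normalized count of 443, above 99.8% of the closed list. The start of the antisense gene *Pcsk2os1* lies near it, 149 bp from the centre of the peak, so accessibility at the start of either gene cannot be told apart. A second closed peak, at chr2:143547837-143548036, lay 99 bp from a start of *Pcsk2os1* and had a mean normalized count of 55.7. The closed peak in an intron 95.6 kb downstream had a mean normalized count of 153. The other 13 closed peaks lay between 5.17 and 79.9. One opened peak lies in the body of *Pcsk2*, with a mean normalized count of 246, but nearer to the start of *Bfsp1*, as do 2 closed peaks of 12.2 and 23.1.

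*Cpe*, the gene of carboxypeptidase E, had 14 closed peaks and no opened one. The promoter peak at chr8:64692651-64693191 had a mean normalized count of 427, above 99.7% of the closed list. Introns held 11 of the others, all within 77.4 kb of the start, and the highest of these, at chr8:64634476-64634858, had a mean normalized count of 128. The peak 4.67 kb downstream had 106. The 2 intergenic peaks lay 115 and 173 kb downstream, with 16.5 and 29.6. The median over all peaks of *Cpe* was 59.0, against 21.5 for *Pcsk2* and 20.8 for *Pcsk1*, so the high levels of *Cpe* were spread over the gene.

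**Figure D3:**
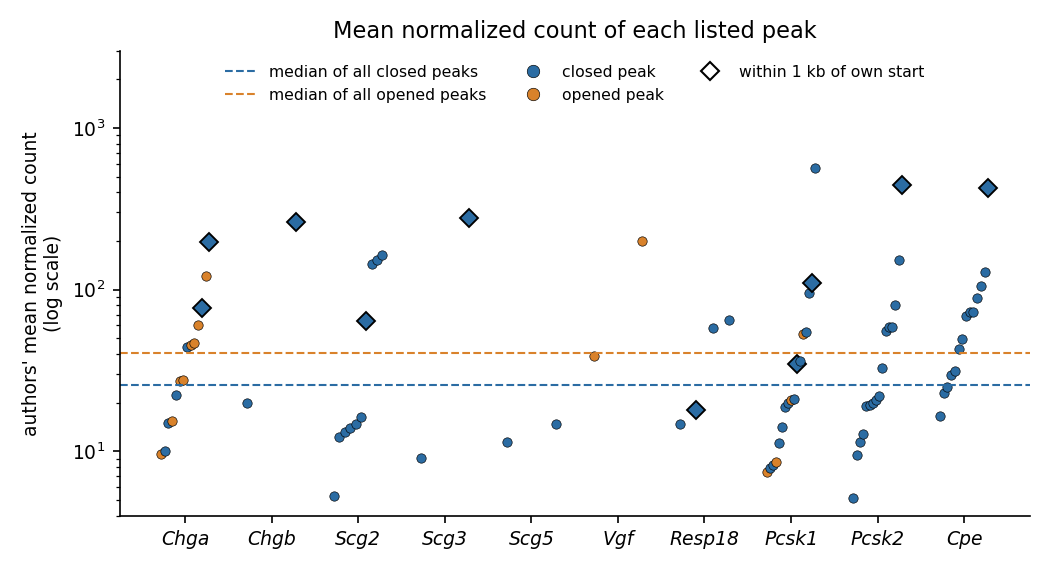
Mean normalized count of each listed peak (y axis, log scale; 1 value per peak over all libraries of both groups) by gene (x axis), with diamonds for peaks within 1 kb of the gene's own start and dashed lines for the medians of all closed (25.8) and all opened (40.7) peaks. The promoter peaks of *Chga*, *Chgb*, *Scg3*, *Pcsk2* and *Cpe* top their genes, while that of *Resp18* lies below the closed median.

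The closed peaks of the 10 genes were set beside the whole closed list by level. Their median mean normalized count was 29.6 against 25.8 for all closed peaks, and 35 of 69 (50.7%) were above the median of the list. Per 100 bp of peak the medians were 12.8 and 10.8, and 59.4% were above that of the list. In the top 5% of the list by mean normalized count stood 10 of the 69 peaks (14.5%), from 7 of the genes. Of these 10 peaks 5 were promoter peaks, those of *Chga*, *Chgb*, *Scg3*, *Pcsk2* and *Cpe*, and 5 lay away from promoters, 3 at *Scg2* and 1 each at *Pcsk1* and *Pcsk2*. The 13 member promoter peaks had a median of 95.3 against 36.5 for all closed promoter peaks, and 11 of them were above the median of the list. The value of 95.3 is that of the peak at the start of *Gm19095*. The member promoter peaks were also wider, with a median of 346 bp against 251 bp, and the part of width in these counts was not tested. Away from promoters the median was 21.6 for the members and 24.9 for all.

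Promoters made up 13 of the 69 closed peaks (18.8%), against 9.68% of the closed list. Introns held 31 (44.9% against 50.1%), intergenic sequence held 25 (36.2% against 36.7%), and no closed member peak was centred in an exon outside promoters (3.55% of the list). Of the 13 promoter peaks, 10 lay at the own start of the gene and 3 at starts of *Gm37871*, *Gm19095* and *Pcsk2os1*. The median distance of the closed peaks from the start site was 44.9 kb, close to 42.4 kb for the list. The closed peaks were also like the list in width, with a median of 255 bp against 248 bp.

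The 14 opened peaks had another layout. None was centred in a promoter, against 22.3% of the opened list, 6 were intronic, 7 intergenic and 1 exonic. Their median distance from the start site was 64.6 kb against 17.5 kb for the list, and 8 of them (57.1% against 26.3%) lay over 50 kb away. Their median mean normalized count was 33.2, below the 40.7 of the opened list. Of the 14, *Chga* held 8, *Pcsk1* 4 and *Vgf* 2. Those over 50 kb away were all either peaks of *Chga* in introns of *Itpk1* or peaks of *Pcsk1*. The layout thus describes few loci under the nearest-start rule, and these peaks are not replicates.

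The other motif cores were compared in the same way. The E-box CAGCTG was in 31.9% of the closed member peaks and 27.6% of all closed peaks. In promoter peaks the numbers were 7 of 13 (53.8%) and 27.1%. The 7 peaks were both promoter peaks of *Chga*, those of *Chgb*, *Resp18* and *Pcsk2*, and those at the starts of *Pcsk2os1* and *Gm19095*. Among closed promoter peaks of at least 346 bp, 4 of 7 member peaks and 42.3% of all held an E-box, so the shares lay nearer to each other among wide peaks.

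The AP-1 core was in 27.5% of the closed member peaks and 29.9% of the closed list. The FOX core TGTTTAC was in 11.6% against 11.4%, the TEAD core in 8 of 69 member peaks and 4740 of the 39539 closed peaks, and TGGGAA, recognised by the Notch effector RBPJ, in 21.7% against 21.5%. In the opened peaks the TEAD core was in 14.3% of the members and 25.4% of the list, and RBPJ in 14.3% against 30.6%, each from 2 of 14 peaks. Both strands were searched; the TEAD and RBPJ cores can overlap by 4 letters, and the CRE, E-box and AP-1 cores read the same or match themselves on the other strand.

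**Figure D4:**
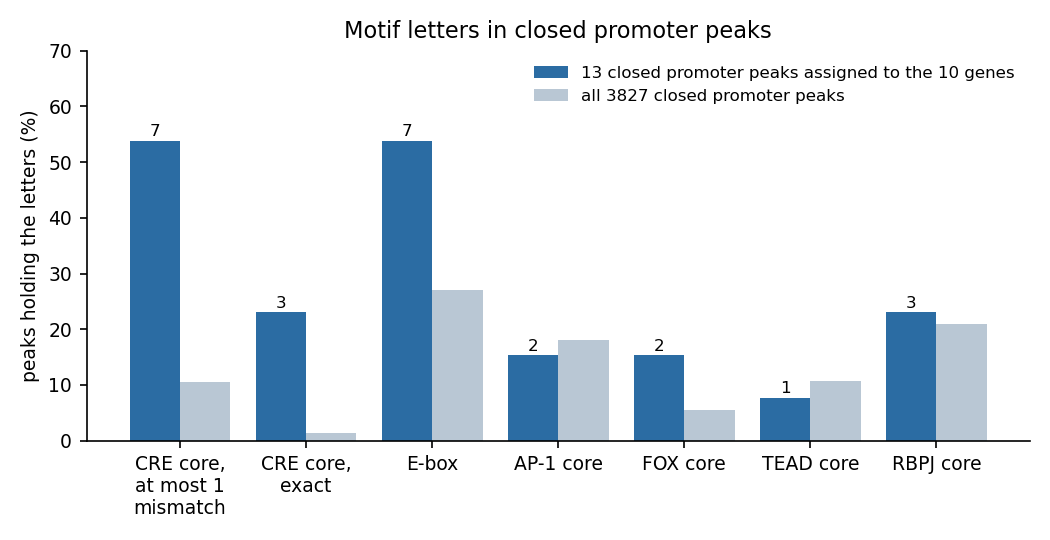
Percentage of closed promoter peaks that hold each core sequence (y axis) for the 13 closed promoter peaks assigned to the 10 genes (dark bars, with the number of peaks above each) and for all 3827 closed promoter peaks (light bars). The CRE core with at most 1 mismatch and the E-box were each in 53.8% of the member peaks, against 10.5% and 27.1%; the member peaks were wider than the others.

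Further genes for the processing of precursors and for dense core vesicles were counted beside the members. Of 14 further processing enzymes and inhibitors, 3 had a closed promoter peak (21.4%, against 8.65% of all protein-coding genes) and 6 an opened one (42.9%, against 28.7%), and 57.5% of their 80 peaks were closed. The closed promoters were those of *Pcsk1n*, which encodes the convertase inhibitor proSAAS, *Pcsk5* and *Pcsk6*. The opened promoters were those of *Pcsk4*, *Pcsk7*, *Furin*, *Mbtps1*, *Cpd* and *Cpm*. *Pcsk4* itself had 0 assigned peaks, so the peak within 1 kb of its start was assigned to another protein-coding gene. *Furin* and *Pcsk7* encode convertases of the constitutive pathway, *Mbtps1* the site-1 protease, and *Cpd* and *Cpm* carboxypeptidases outside dense core vesicles. *Pam*, which encodes the enzyme that amidates peptides, had 19 closed and 7 opened peaks but none at a promoter.

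Of 22 genes for dense core vesicle proteins, 6 had a closed promoter peak (27.3%, against 8.65% of all protein-coding genes) and 6 an opened one (27.3%, against 28.7%), and 76.5% of their 187 peaks were closed. The closed promoters belonged to *Ptprn* and *Ptprn2* (the vesicle membrane proteins IA-2 and phogrin), *Cadps* (the priming factor CAPS), *Slc18a1* (a vesicular monoamine transporter), *Rab3b* and *Rab3c*. *Cadps* had 28 closed peaks and no opened one, and *Ptprn2* had 33 closed and 10 opened. The opened promoters belonged to *Hid1*, *Ccdc186*, *Rab3d*, *Sytl4*, *Dbh* and *Rph3al*. Neither list was tested against the members.

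The labels were checked against markers. Of the NE markers *Insm1*, *Uchl1*, *Calca*, *Ncam1* and *Syp*, all but *Syp* had a closed promoter peak, and *Syp* had no assigned peak. All 5 non-NE markers, *Hes1*, *Notch2*, *Rest*, *Yap1* and *Scgb1a1*, had an opened promoter peak. Across protein-coding genes 8.65% had a closed promoter peak and 28.7% an opened one. Closed peaks were also assigned to *Hes1* (11, beside 26 opened), *Notch2* (6, beside 13) and *Scgb1a1* (3, beside 12). *Rest* and *Yap1* had 3 opened peaks each and no closed one. Among the NE markers named, *Ncam1* had 9 closed and 3 opened peaks. The cells were sorted on a reporter at *Hes1*, so that gene is not an independent check. Markers of other cell types had listed peaks as well: of the peaks of 6 endothelial markers 50 were closed and 17 opened (74.6% closed), of 6 fibroblast markers 13 and 10, and of 7 leukocyte markers 5 and 14. Of the endothelial genes *Cdh5* had 23 closed and 2 opened peaks, *Kdr* 11 and 7, *Vwf* 9 and 2, *Tek* 4 and 2, *Pecam1* 1 and 1, and *Cldn5* 2 and 3, with a closed promoter at *Tek* and an opened one at *Kdr*. Of the leukocyte genes *Ptprc* had 5 closed and 11 opened peaks, *Cd68*, *Csf1r* and *Cd3e* had 1 opened peak each, with an opened promoter at *Cd68*, and *Itgam*, *Adgre1* and *Cd79a* had none. Among the fibroblast genes *Col1a2* had a closed and *Col1a1* an opened promoter. By the study's methods, tumor cells of these mice were stained for the leukocyte, endothelial and erythroid antigens CD45, CD31 and TER-119 and for CD24 before sorting. The part of other cell types in the closed peaks of the members was not tested.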

How the data were processed

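ATAC-seq was done on 4 libraries of GFP high and 4 of GFP neg SCLC cells, each run on 2 lanes. The authors trimmed the reads, aligned them to mm10 with Bowtie2 2.3.4.1, removed duplicates with Samtools, called narrow peaks with MACS2 with reads shifted and extended around the Tn5 cut, merged the peaks of all samples, counted reads per peak with bedtools and compared the groups with DESeq2 1.28.1. The signal the authors deposited is the mean normalized count of a peak over all libraries. Whether lanes or the pairs of 1 mouse were summed is not given in the sources used here. The log2 fold changes and adjusted p-values the authors deposited are those of their own comparison. They were used only to check that every listed peak passes the limits of 1 (absolute log2 fold change) and 0.001 (adjusted p-value), and their values are not reported.

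Here, 1-based peak positions were joined to the basic GENCODE annotation of GRCm38.p6. Peaks were promoter peaks within 1 kb of any annotated start site, then exonic, intronic or intergenic by their centre. Whole peaks were searched for the motif letters on both strands. The REST-NRSF string and the CRE core were read from the motif names and strings supplied with the study. Peaks of like width are those between 0.8 and 1.25 times the width of the peak compared. No test was run, since the files hold 1 row per peak for the whole comparison. Wilson intervals (95%) served only to judge alternatives, and cover counting error only. Scripts were tested on simulated data. Python 3.11.15, numpy 2.4.6, pandas 2.3.3, scipy 1.17.1 and matplotlib 3.10.9 were used.

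The named items are the 10 genes, all their promoter peaks, the peak with the highest mean normalized count per gene and list, and those genes of the other lists that have a promoter peak. The marker genes, *Pam*, the REST-NRSF peak of *Chga*, the peaks in gene bodies nearest to other genes, and further peaks given by their level were named in addition, after their values were seen. The genes and lists were chosen with earlier results of these data known. A marker gene and a sequence are not reported here.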

Additional observations from a re-analysis of the deposited data

How the results depend on the processing

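The peaks rest on 3 mice, and peaks that did not pass the authors' limits were not analysed here. Stricter limits were not tried, because the authors' fold changes and p-values were not used. The closed peaks of the 10 genes numbered 38 instead of 69, and the opened peaks 5 instead of 14, where start sites of any gene type took part in the assignment; *Pcsk2* then kept 0 of its 16 closed peaks, all nearer to starts of antisense or pseudogenes. Within 10 kb of the gene body 5 peaks were opened and 91.5% were closed. With a mean normalized count of at least 20 there were 41 closed peaks. The REST-NRSF string was in 1 peak in place of 2 in the central 200 bp, and the TEAD core in 4.35% of the closed member peaks, against 7.76% of all closed peaks. With 1 mismatch, chosen after seeing the data, 7 closed promoter peaks in place of 3 held the CRE core. The share of closed peaks stayed between 80.4% and 91.5% in the alternatives run, and the 8 genes with a closed promoter peak remained 8 in number under each promoter definition. Opened promoter peaks rose from 0 to 1 where any base of the peak within 1 kb was enough, and to 2 at 3 kb, in each case at 1 gene, *Vgf*. Assignment to starts of protein-coding transcripts alone, also added after seeing the data, left the counts at 69 and 14. No paired analysis was possible because the files hold 1 row per peak and no value per sample.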
